A study of Mus musculus with 12 samples.

Results

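The mouse genome names a large class of genes Zfp followed by a number, and most of them encode zinc finger proteins. The annotation of GRCm38.p6, the assembly of mm10, held 360 autosomal protein-coding genes with such a symbol. A promoter was taken as the 2 kb window from 1500 bases upstream to 500 bases downstream of the 5′ end of the gene record, and it was measured where at least 3 of its CpG cytosines were listed in all 12 libraries. This left 192 measured Zfp promoters among 10554 autosomal protein-coding promoters in all. Of the other 168 genes, 137 had no such cytosine and 31 had 1 or 2.

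DNA methylation was measured by reduced representation bisulfite sequencing (RRBS), which reads CpG-rich restriction fragments after a bisulfite step that converts unmethylated cytosines. The deposited value is the percent of reads called methylated at a cytosine, and the methylation level of a promoter is here the mean of these percentages over its cytosines. The experimental line was an immortalized mouse embryonic fibroblast (iMEF) line of genotype R26M2rtTA/+;TetOcre;Sdhcfl/fl, in which doxycycline (1 microgram/mL) switches on Cre recombinase and both floxed copies of Sdhc, a subunit of succinate dehydrogenase, can rearrange. The control line was R26M2rtTA/+;TetOcre;Sdhcfl/wt, so that it carried the same transactivator and Cre, received the same doxycycline and kept 1 wild type copy of Sdhc. Cre is driven by a tetracycline-responsive promoter in both lines, which were established from embryos and immortalised with SV40. Each line gave 1 library before doxycycline (day 0) and 1 on each of days 5, 9, 12, 16 and 20. The line difference compared the 6 control libraries with the 5 experimental libraries of days 5 to 20, the grouping used in the study. There was 1 line per genotype and 1 library per line and day, so genotype and line cannot be told apart. The spread given below is the spread between days of a culture, and p-values measure only that spread.

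Most numbered Zfp genes encode C2H2 proteins, in which a string of fingers, each folded around a zinc ion, reads DNA. Many also carry a KRAB box, which recruits the corepressor TRIM28 and, through it, a histone H3K9 methyltransferase and DNA methylation, and these proteins are best known for silencing retroelements and holding imprints. KRAB zinc finger genes lie in tandem clusters that grew by gene duplication. Other members have separate trades, among them Zfp36, an RNA-binding protein that destabilises messenger RNA, and Zfp598, a ubiquitin ligase that marks collided ribosomes. A KRAB box pattern was found in the coding sequence of 91 of 188 measured members (48.4%) and of 111 of 164 members that were not measured (67.7%). The background was 248 of 17474 autosomal protein-coding genes with a coding sequence matched by symbol (1.42%).

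The libraries listed between 932307 cytosines (control day 12) and 1716381 (control day 5). Control day 0, with 1394408, was the library with the second fewest. The files used here carry percentages without read counts. Depth is therefore unknown, and no confidence interval can be given for a cytosine. The share of member promoters at exactly 0% was 53.1% in control day 12 and 19.8% in experimental day 16, the highest and the lowest of the 12 libraries. The part of this spread in small differences at promoters close to 0% was not tested. RRBS reads DNA only and gives no marker of cell type.

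The 250 bases upstream of the start site are shown for 4 members that stand for the levels seen, with capitals for each CG that held a cytosine listed in all 12 libraries. They were taken from RefSeq promoter sequences of GRCm38.p6 and are written 5′ to 3′ along the gene. Zfp598 (chr17:24669437-24669686, plus strand) has a CG-rich promoter close to unmethylated here. Zfp503 (chr14:21989602-21989851, minus strand) is a developmental gene with a partly methylated promoter. Zfp977 (chr7:42592546-42592795, minus strand) is CG-poor and almost fully methylated. Zfp563 (chr17:33089117-33089366, plus strand) has 1 measured CG in this stretch and was among the promoters that differed between the lines.
Zfp598: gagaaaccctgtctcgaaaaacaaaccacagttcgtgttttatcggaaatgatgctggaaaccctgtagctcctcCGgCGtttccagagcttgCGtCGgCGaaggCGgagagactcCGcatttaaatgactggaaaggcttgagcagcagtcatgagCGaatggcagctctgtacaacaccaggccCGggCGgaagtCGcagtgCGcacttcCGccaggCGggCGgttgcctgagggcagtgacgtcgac
Zfp503: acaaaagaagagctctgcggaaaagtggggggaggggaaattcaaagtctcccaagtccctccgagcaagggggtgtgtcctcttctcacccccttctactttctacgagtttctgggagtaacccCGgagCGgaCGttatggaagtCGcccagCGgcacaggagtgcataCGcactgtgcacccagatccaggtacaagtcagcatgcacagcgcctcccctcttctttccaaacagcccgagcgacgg
Zfp977: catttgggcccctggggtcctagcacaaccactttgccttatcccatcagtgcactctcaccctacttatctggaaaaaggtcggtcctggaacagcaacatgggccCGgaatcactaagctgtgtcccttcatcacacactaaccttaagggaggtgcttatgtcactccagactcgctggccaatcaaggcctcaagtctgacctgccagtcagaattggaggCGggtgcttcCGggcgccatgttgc
Zfp563: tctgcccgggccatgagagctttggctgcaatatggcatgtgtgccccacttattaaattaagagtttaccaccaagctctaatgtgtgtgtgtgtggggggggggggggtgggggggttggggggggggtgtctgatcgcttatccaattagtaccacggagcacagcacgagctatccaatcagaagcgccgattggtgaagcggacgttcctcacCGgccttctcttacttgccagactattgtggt
The stretch of Zfp598 holds 20 CGs, of which 15 were measured, and its 16 measured cytosines had a level of 0.484% ± 0.587 (SD, n = 6) in the control line. That of Zfp503 holds 13 CGs, 6 of them measured, and had a control level of 25.9% ± 10.8 (SD, n = 6). That of Zfp977 holds 6 CGs, 3 of them measured, and had a control level of 94.8% ± 9.84 (SD, n = 6). These 3 cytosines are also all that the promoter value of Zfp977 rests on.

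Zfp promoters were for the most part unmethylated in both lines. Over the 12 libraries the members had a mean level of 7.54% and a median of 1.09%, against a mean of 11.7% and a median of 1.64% over all promoters. The level was under 5% at 149 of 192 members (77.6%), compared with 63.8% of all promoters. It reached 20% at 19 members (9.90%), compared with 17.0% of all promoters, and 6 of these were above 80%. Among related families, the 25 measured Zbtb promoters, whose products pair zinc fingers with a BTB domain, had a median of 0.734%, the 13 Zscan and Zkscan promoters had a median of 1.23%, and the 18 promoters of genes named Zfp with letters had a median of 4.03%, with 61.1% of them under 5%. The members rested on a median of 11 cytosines (range 3 to 55), and all promoters on a median of 14. In the 70 members whose 300-base promoter sequence was available at the start site used, the median number of CGs was 17, against 22 in 4835 promoters of all genes, while the restriction site CCGG (spelled C, C, G, G and its own reverse complement) occurred in 88.6% and 88.2% of them. These shares are descriptions without a test.

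**Figure D1:**
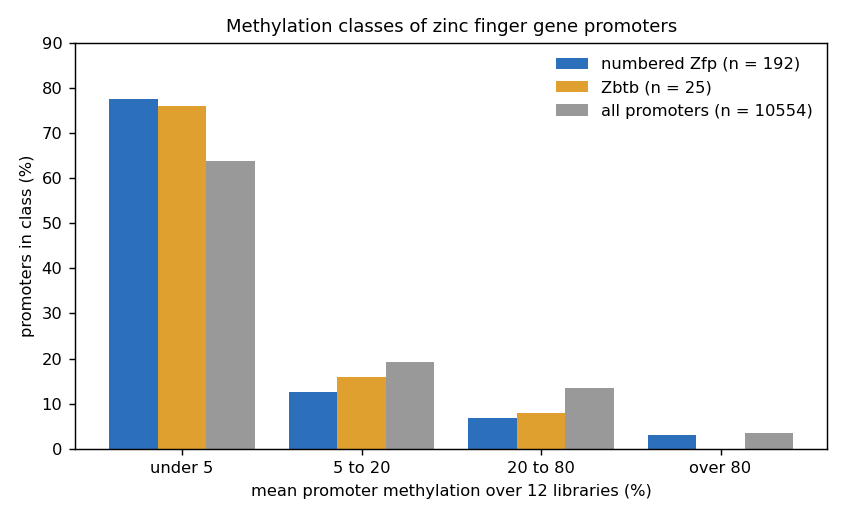
Share of promoters (percent, vertical axis) in 4 classes of mean methylation over the 12 libraries (horizontal axis, percent) for the 192 numbered Zfp promoters, 25 Zbtb promoters and all 10554 promoters. Bars are shares of each set; 77.6% of numbered Zfp and 63.8% of all promoters lie under 5%.

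The methylated members were few and of different kinds. The highest levels over the 12 libraries were those of Zfp977 (90.8%), Zfp42 (90.4%), Zfp469 (88.8%), Zfp335 (88.8%) and Zfp574 (87.5%). Zfp42 encodes REX1, a marker of pluripotent cells. Its 9 cytosines gave between 78.2% and 95.7% in the control line with a median of 88.7%, and between 91.2% and 100% in the experimental line on days 5 to 20. The ranges of the lines overlapped, and the difference did not pass the test (adjusted p = 0.285, limma). Zfp977, Zfp574 and Zfp996 (83.3%) had 3 cytosines each. For Zfp335, a regulator needed in neural progenitors, the level depended on the start site. At the start site listed in the RefSeq promoter table, 835 bases from the one used, 40 cytosines had a mean of 13.4%.

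The genes listed for roles in pluripotency and development differed in level. Zfp503, a transcriptional regulator of the developing striatum, had 48 measured cytosines and stood at 45.5% ± 5.13 (SD, n = 6) in the control line and 43.9% ± 5.05 (SD, n = 5) in the experimental line, with experimental day 0 at 41.8%. The control days lay between 39.3% and 50.3%, and the experimental days overlapped them. Its relative Zfp703 had 4.07% ± 4.53 (SD, n = 6) in the control line, where day 0 alone reached 12.6%, and 1.42% ± 1.14 (SD, n = 5) in the experimental line. Zfp521, a factor of immature fat and bone precursors, had a mean of 0.354% over the 12 libraries. Zfp281, a factor of pluripotent cells, was at 0 in each control library, with experimental values of up to 0.807% on days 5 to 20. Zfp296 is also known from pluripotent cells, but it was not on that list and is named for its increase in level. It stood at 6.40% ± 5.36 (SD, n = 6) in the control line and 18.8% ± 9.89 (SD, n = 5) in the experimental line. Its ranges overlapped and the difference did not pass the test (adjusted p = 0.185, limma).

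Of the members that act on RNA or ribosomes, 3 were measured, and 2 of them were near 0. Zfp36 had a mean of 0.274%, and Zfp622, a factor of large ribosomal subunit maturation, 0.543%. Zfp598 had 6.22% over its 36 cytosines, of which those 822 and 806 bases upstream had control means of 98.1% and 100%. The broadly used regulators Zfp143 (1.03%), Zfp148 (0.337%), Zfp384 (1.24%) and Zfp91 (0.281%) were also low. Zfp410, whose product controls Chd4, was the exception in this group at 23.0%, on 3 cytosines, with control days from 6.85% to 46.9%. Of 25 members listed for a known role, 18 were measured and 2, Zfp932 and Zfp423, differed between the lines (adjusted p under 0.05, limma). Over all promoters 2.18% differed, and the list was chosen with earlier results of these data known. Zfp57, Zfp106, Zfp207, Zfp219, Zfp462, Zfp536 and Zfp750 were not measured.

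The measured genes of imprint and retroelement silencing were low as well, apart from Zfp932 below. Zfp568, a repressor of a placental Igf2 transcript, had a mean of 0.116% and Zfp809, which binds retroviral primer sites, 1.68%. Zfp445, a guardian of imprints, had 6.64% on 5 cytosines, with control days between 0% and 31.6%. At its start site in the promoter table, 20845 bases away, 20 cytosines had a mean of 1.00%. Among the proteins that KRAB zinc finger proteins work with, 13 of the 22 listed genes were measured (among them Setdb1, Chd4, Cbx3, Morc2a and Uhrf1). Of these, 12 lay under 5% and the highest, Atf7ip, had 5.73%. None differed between the lines by limma, with 0 at an unadjusted p under 0.05 and a lowest adjusted p of 0.390. Over all promoters 2.18% differed and 17.5% had an unadjusted p under 0.05.

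The 360 named genes were spread unevenly over the chromosomes. Chromosome 7 held 90 of them with 47 measured, chromosome 17 held 41 with 22 measured, and chromosome 13 held 32 with 11 measured. With genes joined where neighbouring starts lay within 500 kb, 221 genes formed 33 runs of 3 or more. Of the genes in runs 106 (48.0%) were measured, and of those outside 61.9%. A KRAB pattern was found in 164 of 215 run genes with a matched coding sequence (76.3%) and in 38 of 137 outside runs (27.7%). The median level was 1.11% in runs and 1.07% outside. By protein type, members with a KRAB pattern had a median of 1.21% and those without had 1.01%.

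Within runs, levels differed from gene to gene. The run with the most genes, on chromosome 17 from 21008941 to 23599755, had 23 named and 13 measured genes with a median of 0.883%, and none reached 20%. The run on chromosome 7 from 29768552 to 30169775, with 7 of 15 genes measured, had a median of 0.474% and a highest level of 3.47%. A run of 20 genes on chromosome 13 had only 2 measured. The run on chromosome 7 from 24081877 to 25219849 stood apart from these by its values. There, 7 of 14 genes were measured, the median was 24.2%, and 4 genes reached 20%: Zfp180 (40.0%), Zfp108 (24.2%), Zfp575 (57.0%) and Zfp574 (87.5%). Its other 3 measured genes lay under 5%. Few cytosines lie behind these levels, with 5 each at Zfp180 and Zfp108 and 3 at Zfp574. The low Zfp112 (1.04%) also has 3. The median is the level of Zfp108, which had 80% on control day 12 with the next control day at 23.0%. Without control day 12 the control mean of Zfp108 was 20.0%, beside an experimental mean of 19.3%. Across the 74 pairs of measured neighbours in runs that shared no cytosine, Spearman's rho was -0.0785 for the level and -0.230 for the difference between the lines. Both neighbours were under 5% in 48 of these 74 pairs and both at 20% or more in 1. Pairs come from the same libraries and genes enter up to 2 pairs, so these are descriptions. Only 6 members, in the pairs Zfp398 and Zfp786, Zfp646 and Zfp668, and Zfp942 and Zfp943, shared cytosines because their windows overlap.

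**Figure D2:**
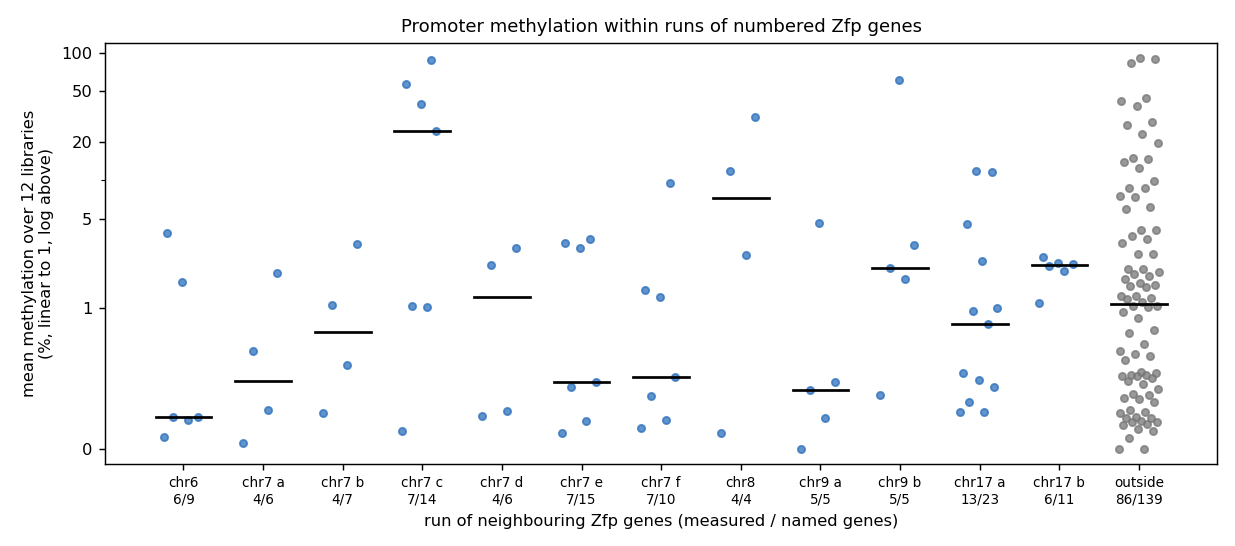
Mean methylation over the 12 libraries (percent, vertical axis, linear to 1 and logarithmic above) of each measured promoter in runs with at least 4 measured genes, and of promoters outside runs. Each point is a promoter, bars are medians, letters number the runs of a chromosome in order, and labels give measured and named genes; run c of chromosome 7 has a median of 24.2% and those outside runs 1.07%.

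Mean levels of cytosines varied more with position in the window than between the lines. In the control line the 1805 member cytosines from the start site to 500 bases downstream averaged 3.68%, and the 619 cytosines in the 500 bases upstream averaged 4.15%. The 127 cytosines between 1000 and 500 bases upstream averaged 21.3% in 26 promoters, and the 68 farthest upstream averaged 34.1% in 12 promoters. In the experimental line the same bins averaged 3.46%, 5.03%, 22.8% and 31.9%. Control medians of these bins were lower than the means, at 0%, 0%, 1.46% and 14.0%. The bins hold different promoters, and cytosines of a promoter share reads.

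The lines were then compared. The mean over the members was 7.30% ± 0.223 (SD, n = 6) in the control libraries, between 7.10% and 7.70%, and 7.82% ± 0.25 (SD, n = 5) in the experimental libraries, between 7.53% and 8.18%. Experimental day 0 had 7.56%. The difference of 0.511 percentage points compares with 0.849 over all promoters. It fell to 0.0703 points for members with 10 or more cytosines and to 0.0682 when each member cytosine was counted once. The mean was higher in the experimental line at 116 of 192 members (60.4%) and lower at 73, against 63.8% higher among all promoters.

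Of the 192 members, 7 (3.65%) differed between the lines at an adjusted p under 0.05 (limma on M-values, a log2 ratio of methylated to unmethylated share, with Benjamini-Hochberg adjustment over all promoters). The background was 2.18% of all promoters. Higher in the experimental line were Zfp710, Zfp467 and Zfp563, and lower were Zfp932, Zfp423, Zfp709 and Zfp707. Among all promoters 1.5% were called higher and 0.682% lower. At an unadjusted p under 0.05 there were 25 members (13.0%), against 17.5% of all promoters. At 10 members (5.21%) the values of the lines did not overlap, 7 higher and 3 lower in the experimental line, against 4.09% of all promoters (3.0% higher and 1.09% lower). Counts this close to the background are no result about Zfp genes as a class. The promoters themselves are described next. Of the called members, 4 had a KRAB pattern (Zfp932, Zfp709, Zfp707 and Zfp563), which is 4.40% of the 91 measured with it. The 3 without it are 3.09% of 97. In runs 4 of 106 members were called (3.77%) and outside runs 3 of 86 (3.49%). These shares were not tested.

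**Figure D3:**
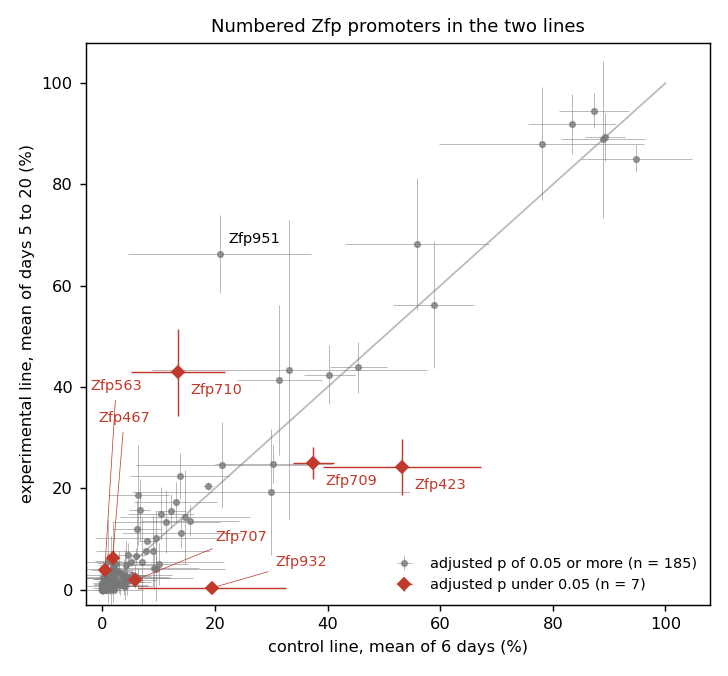
Mean methylation of each of the 192 numbered Zfp promoters in the control line (horizontal axis, percent, 6 days) and in the experimental line (vertical axis, percent, days 5 to 20), with bars of 1 SD between days and the line of equal levels. Red diamonds are the 7 promoters past the threshold, such as Zfp423 at 53.2% and 24.2%; most others lie close to the line of equal levels near 0.

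Zfp932 (chr5:109995002-109997001), a KRAB zinc finger gene linked to retroelement silencing, was partly methylated in the control line and close to 0 in the experimental line. The control days had 44.1%, 10.2%, 15.9%, 7.22%, 22.2% and 17.5% in order of day, with a mean of 19.5% ± 13.2 (SD, n = 6). The experimental line was at 0 on days 0, 5, 9, 12 and 20 and at 1.74% on day 16. Every control value lay above every experimental value. The difference was -4.17 ± 0.53 (SE) on the M-value scale (adjusted p = 0.00524, limma), and it passed the threshold with each of the 11 libraries left out in turn. The promoter value rests on 4 cytosines between 19 and 238 bases downstream of the start site, all lower in the experimental line. When methylated fractions were tested in place of M-values, it did not pass (adjusted p = 0.135, limma). Over the settings on the M-value scale the difference of Zfp932 ranged from -6.86 to -2.36.

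Zfp423 (chr8:87961554-87963553), a factor that commits fibroblast-like precursors to the fat lineage, had the largest decrease in level among the named members. The control days had 58.9%, 54.7%, 56.5%, 27.5%, 69.7% and 51.8%, and the experimental days 5 to 20 had 28.7%, 25.8%, 29.7%, 17.8% and 19.1%. Control day 12, the library with the fewest cytosines, lay within the experimental range, and the other 5 control days lay above it. The means were 53.2% ± 14.0 (SD, n = 6) and 24.2% ± 5.45 (SD, n = 5), a difference of -1.81 ± 0.40 (SE) on the M-value scale (adjusted p = 0.0463, limma). Of the 25 cytosines, 156 to 420 bases downstream of the start site used, 24 were lower in the experimental line. The call was lost when any library other than control day 12 was left out (highest adjusted p = 0.0971, limma), and without control day 12 the adjusted p was 0.00822. An offset of 0.001 or fractions in place of M-values also lost it. So did leaving out cytosines with the same value in each library, and a window from 500 bases upstream. The adjusted p with day as a block over days 5 to 20 was 0.231 (limma). The start site listed in the RefSeq promoter table lies 2458 bases away, and there 36 cytosines had 2.34% in the control and 2.25% in the experimental line (adjusted p = 0.891, limma). The differing cytosines are thus in a stretch near the 5′ end of the gene record and not at the other start site, around which levels were low in both lines.

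Zfp710 (chr7:80023314-80025313) had the largest increase in level among the members past the threshold. The control days had 9.77%, 27.5%, 4.88%, 9.20%, 9.66% and 19.3%, and the experimental days 5 to 20 had 32.9%, 49.5%, 39.7%, 38.7% and 54.0%. The lines did not overlap, and the means were 13.4% ± 8.38 (SD, n = 6) and 43.0% ± 8.59 (SD, n = 5). The difference was 2.38 ± 0.45 (SE) on the M-value scale (adjusted p = 0.0256, limma). It rests on 5 cytosines from 1 base upstream to 79 bases downstream of the start site. The cytosine 79 bases downstream had a mean of 2% in the control and 56.3% in the experimental line, and the one 1 base upstream had 20.3% and 17.1%. The call was lost in 6 of 11 cases with a library left out (experimental days 9, 12, 16 and 20, and control days 0 and 16), with adjusted p of at most 0.0605. It was also lost with control days 0 and 12 left out together. With day as a block over days 5 to 20 the adjusted p was 0.178 (limma).

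Zfp709 (chr8:71880568-71882567) was partly methylated in both lines and lower in the experimental line. The control days lay between 30.7% and 40.2% and the experimental days 5 to 20 between 21.1% and 28.1%, with no overlap. The means were 37.4% ± 3.65 (SD, n = 6) and 25.0% ± 3.22 (SD, n = 5), and the difference was -0.82 ± 0.16 (SE) on the M-value scale (adjusted p = 0.0266, limma). Its 10 cytosines were unlike each other. The cytosine 689 bases upstream was methylated in both lines (97.9% and 97.5%), the one 81 bases downstream had 54.4% in the control and 9.27% in the experimental line, and 6 cytosines farther downstream had control means of at most 17.5%. The call was lost without experimental day 5, experimental day 12, control day 5 or control day 20 (adjusted p of at most 0.0618). An offset of 0.001 also lost it, as did leaving out cytosines with the same value in each library. Leaving out control days 0 and 12 together lost it too. The adjusted p with day as a block over days 5 to 20 was 0.128 (limma).

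The other 3 called promoters were low in both lines. At Zfp707 (chr15:75967623-75969622) the 31 cytosines had 5.72% ± 1.28 (SD, n = 6) in the control and 1.82% ± 0.943 (SD, n = 5) in the experimental line (adjusted p = 0.0223, limma). The control days lay between 3.63% and 7.08% and the experimental days between 0.811% and 2.83%. In the control line 20 of its cytosines were under 5%, and the one 225 bases downstream had 35.8% and 0.774%. The call was lost without experimental day 16 (adjusted p = 0.0529, limma). It was also lost with a variance trend and with control days 0 and 12 left out together. With day as a block over days 5 to 20 the adjusted p was 0.0945 (limma). At Zfp563 (chr17:33087867-33089866) the 15 cytosines had 0.424% ± 0.552 (SD, n = 6) and 3.80% ± 1.38 (SD, n = 5), with an adjusted p of 0.0176 (limma). The series only just separated, as day 5 had 1.39% in the control and 1.40% in the experimental line. Its cytosines 397 and 437 bases downstream had 21.6% and 14.8% in the experimental line and 0.694% each in the control line. Without experimental day 12 the call was lost (adjusted p = 0.0518, limma), as it was with an offset of 0.001 (adjusted p = 0.0597, limma). It was also lost with control days 0 and 12 left out together. With day as a block over days 5 to 20 the adjusted p was 0.181 (limma). Over the settings on the M-value scale its difference ranged from 0.73 to 3.65.

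Zfp467 (chr6:48445493-48447492), a factor that steers marrow precursors between bone and fat, had 1.83% ± 1.02 (SD, n = 6) in the control and 6.29% ± 1.53 (SD, n = 5) in the experimental line. The control days lay between 0.401% and 2.83% and the experimental days between 3.85% and 7.48%. The adjusted p was 0.0334 (limma). Of its 14 cytosines, those 373 and 362 bases downstream carried most of the level, with 8.04% and 8.73% in the control and 29.0% and 29.2% in the experimental line. With the start site of the promoter table, 902 bases away, it did not pass (adjusted p = 0.108, limma). The call was also lost in 6 of 11 cases with a library left out (experimental days 5, 9, 12 and 16, and control days 12 and 20), with adjusted p of at most 0.0859. An offset of 0.001 or a variance trend lost it too, as did leaving out control days 0 and 12 together. The adjusted p with day as a block over days 5 to 20 was 0.159 (limma).

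**Figure D4:**
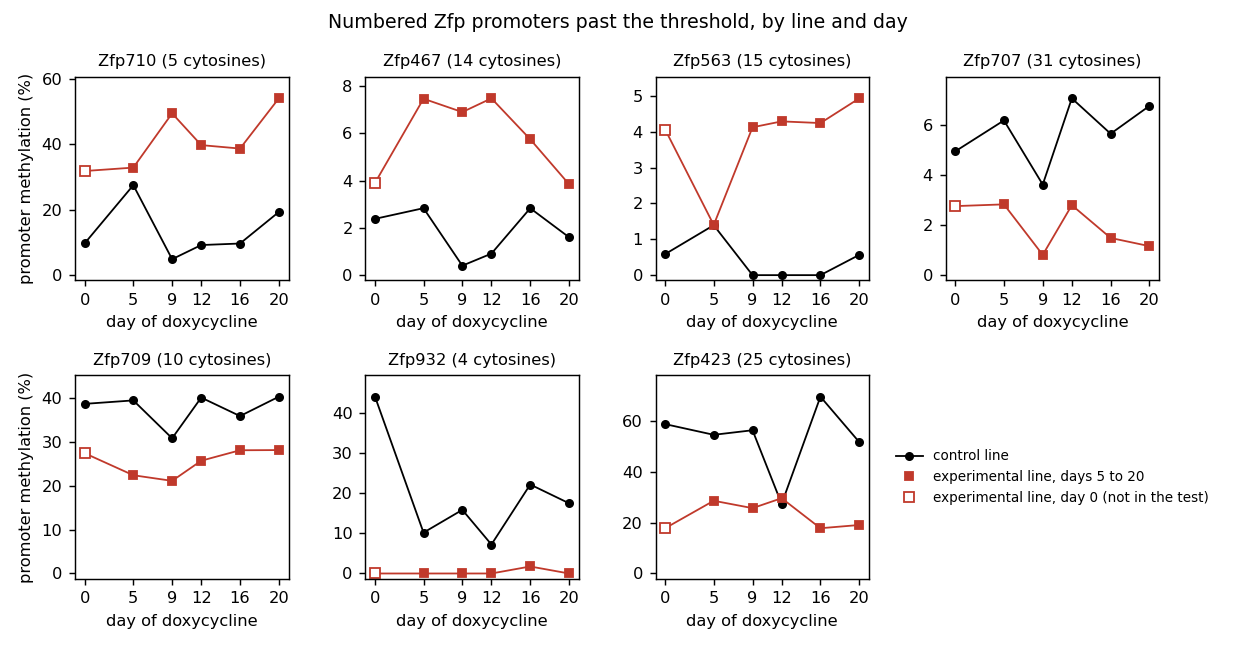
Methylation (percent, vertical axes of different scale) by day of doxycycline (horizontal axes) at the 7 promoters past the threshold, with 1 library per point. Black circles are the control line, red squares the experimental line, and open squares the experimental day 0 library, which was not in the test and lies outside the control range at each of the 7.

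Experimental day 0 was not used in the line difference, but it is set here against the same control libraries that entered the call, so these counts are a description with no test. It lay outside the control range, on the side of the later experimental days, at 7 of 7 called members, as it did at 90.4% of the 230 called promoters in all. At Zfp932 it was 0, at Zfp423 17.9%, at Zfp710 31.8%, at Zfp709 27.3%, at Zfp707 2.76%, at Zfp563 4.06% and at Zfp467 3.90%. At 6 of the 7, all but Zfp467, day 0 was past the midpoint between the means of the lines, as at 187 of the 230 called promoters (81.3%).

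Day 0 differences were also seen at members that did not pass the test. The lines differed by more than 10 percentage points on day 0 at 20 members (10.4%), against 12.8% of all promoters. Among members with at least 5 cytosines the largest excess of the experimental line was at Zfp180 (29.0 points), then Zfp710 (22.1) and Zfp660 (20.3), and the largest deficits were at Zfp423 (-41.0 points), Zfp661 (-16.7) and Zfp677 (-16.4). Zfp180 also varied widely within the control line, between 0% and 64.4%, and its line difference did not pass (adjusted p = 0.649, limma). Its means were 33.1% in the control and 43.4% in the experimental line, and without experimental day 20 the latter was 31.2%. Zfp108 ranged from 15.3% to 80% in the control line, and Zfp800, with 21 cytosines, from 20.4% to 47.1%.

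The change over the days was compared next. The test of a difference in slope, over all 12 libraries, called 0 members and 0.0% of all promoters (limma). At an unadjusted p under 0.05 there were 7 members (3.65%), against 5.2% of all promoters, and the lowest adjusted p of a member was 0.911.

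Other members had large or separate values without passing the test. Zfp951, with 3 cytosines, had the largest difference in level of all members and is named here after its values were seen. The control days ranged from 0% to 47.5% and the experimental days 5 to 20 from 56.3% to 73.8%, with means of 20.8% ± 16.3 (SD, n = 6) and 66.3% ± 7.66 (SD, n = 5). The adjusted p was 0.0943 (limma), and experimental day 0 had 50%. It passed when fractions were tested, with an offset of 0.05 and without control day 12. The lines did not overlap either at Zfp760 (6.65% and 15.7%, adjusted p = 0.0632), Zfp330 (0% and 0.232%, adjusted p = 0.127) or Zfp706 (0.0149% and 0.342%, adjusted p = 0.110), all by limma and also named after their values were seen. Zfp330 and Zfp706 passed with an offset of 0.001 or a variance trend, and Zfp760 without experimental day 9 or with experimental day 0 included. The largest increases, from control to experimental mean, included Zfp872 (55.8% to 68.3%) and Zfp660 (31.4% to 41.4%), and the largest decreases Zfp108 (30% to 19.3%), Zfp800 (30.4% to 24.8%) and Zfp445 (9.52% to 4.07%). None of these 5 passed, and the control and experimental days overlapped at each. A single library carried some of these values. Without control day 12 the control mean of Zfp108 was 20.0%, and without control day 16 that of Zfp445 was 5.10%.

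Single cytosines were tested as well. Of 1486 variable member cytosines 4 passed the threshold, all higher in the experimental line (limma, adjusted over all cytosines), and 89 had an unadjusted p under 0.05. Over all cytosines 0.615% passed, 0.335% as higher, and 12.1% had an unadjusted p under 0.05. The 4 are named after their values were seen. The cytosine of Zfp961 at position 71950662 of chromosome 8, 386 bases upstream, had 0% in 5 control libraries and 3.13% on control day 16. It had between 7.5% and 39.6% on experimental days 5 to 20 and 14.5% on experimental day 0 (adjusted p = 0.0164, limma). The other 3 lie within 16 bases of each other about 1 kb upstream of Zfp367 (64154180, 64154186 and 64154196 of chromosome 13). All were at 0 in each control library, and at the first the experimental days had 30%, 28.9%, 5.26%, 8.70% and 60.0%, with 8.33% on day 0 (adjusted p = 0.0180, limma). Values this alike at neighbouring cytosines can come from the same reads. Over all 42 cytosines of its promoter Zfp367 stood at 2.35% and 5.14% (adjusted p = 0.131, limma).

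The minimum of 3 cytosines decided which promoters were measured. The 15 members with exactly 3 had a median level of 1.93% (range 0% to 90.8%), and the 18 genes with exactly 2, which were left out, had a median of 1.66% (range 0.102% to 85.2%). The start site listed in the promoter table lay more than 500 bases from the one used at 13 of the 192 members, among them Zfp423, Zfp335, Zfp445 and Zfp467.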

How the data were processed

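RRBS libraries of genomic DNA from 2 iMEF lines at 6 time points were used (12 libraries). The authors aligned the reads to mm10 and called methylation with Bismark, and the deposited value of a CpG cytosine is its methylation percentage among the reads. Versions are not given in the sources used here. No read counts accompany the percentages, so no coverage minimum or interval was possible, and library size is known only from how many cytosines a file lists. Positions were taken as 1-based; all 319 member positions that lie in the RefSeq promoter sequences used fell on a CG.

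Cytosines listed in all 12 libraries and on autosomes were kept (606488, both strands of a CpG as separate values). Start sites were the 5′ ends of RefSeq gene records of GRCm38.p6. Strand came from RefSeq promoter records for 301 of the 360 Zfp genes and by symbol from GENCODE vM1 for 59, with no coordinate of that build used. A promoter value is the mean percentage of its cytosines. KRAB box and finger patterns were counted in translated GENCODE vM1 coding sequences matched by symbol or a synonym, for 352 of the 360 genes. For the background of 17474 genes, symbols alone were matched. No exon annotation of mm10 was used.

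Promoters and single cytosines (508351 after leaving out those with the same value in each library) were tested with limma 3.58.1 in R 4.3.3 on M-values, log2((beta + 0.01)/(1 - beta + 0.01)) with beta the percentage divided by 100, two-sided, with Benjamini-Hochberg adjustment over all features and a threshold of 0.05. The slope test used line, day and their interaction over all 12 libraries. The step was checked on simulated data. Tables and figures were made with Python 3.11.15, numpy 2.4.6, pandas 2.3.3 and matplotlib 3.10.9.

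Members named are those past the threshold, the 5 largest increases and decreases, 3 largest day 0 differences in each direction and 3 widest control ranges among those with at least 5 cytosines, the 5 highest means, and a list of 25 genes of known role. The members, lists and tests were chosen with earlier results of these data known. Same-day libraries of the lines did not deviate together (correlations across promoters between -0.0250 and 0.0213), so the day numbers were not used as pairs. Alternatives were other offsets, fractions in place of M-values, a variance trend, other cytosine minimums and windows, other choices of days, each library left out in turn, and, chosen after seeing the data, the start sites of the promoter table and leaving out control days 0 and 12 together.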

Additional observations from a re-analysis of the deposited data

Results flagged for a closer look

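In 67 series of a named promoter within a line (6 control days, or experimental days 5 to 20), 13 held a value far from the others by Dixon's criterion. The usual chance rate of this criterion, about 1 series of 20, does not hold for these series. Some members were named for a wide control range, and where all other days are at 0 any higher value is flagged. Control day 12, the library with the fewest cytosines, gave 2 of them: Zfp108 was at 80% with the next control day at 23.0%, and Zfp872 at 31.0% with the next at 53.5%. Day 9 gave both flags of Zfp598, at 7.29% in the control line (next 6.03%) and 9.49% in the experimental line (next 6.39%). Experimental day 9 also gave Zfp660 at 67.6% (next 38.6%) and Zfp809 at 6.55% (next 0.866%). Control day 5 gave Zfp977 at 75.2% (next 94.8%), Zfp568 at 1.39% with the other 5 days at 0, and Zfp91 at 0.588% with the others at 0. Among the called promoters, Zfp563 on experimental day 5 was at 1.40% (next 4.12%) and Zfp932 on experimental day 16 was at 1.74% with the others at 0. Zfp281 had 0.807% on experimental day 12 (next 0.198%), and Zfp521 had 2.35% on experimental day 20 (next 0.327%). Without control day 5, the difference at Zfp977 passed the threshold (-3.47 on the M-value scale, adjusted p = 0.0139, limma), lower in the experimental line. No other cause was tested for these values.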

How the results depend on the processing

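Against 7 called members as reported, 5 to 8 were called under the other offsets, fractions, variance trend, cytosine minimums, windows, start sites and choices of days. Leaving out each library in turn gave 2 to 7 members, 103 to 254 of all promoters and 4 to 8 member cytosines. Of single libraries, the member count moved by over 1.5 times without experimental day 12 (2), experimental day 16 (3), experimental day 5 (4) and control day 20 (4), and with control days 0 and 12 left out together, chosen after seeing the data, it was 3. The count over all promoters, 230 as reported, was 143 with an offset of 0.001 and 141 for windows from 500 bases upstream. With the day as replicate block over days 5 to 20, 1 member (Zfp932, adjusted p = 0.0408, limma), 6 promoters and 0 cytosines were called. In that fit 70 of 1486 member cytosines had an unadjusted p under 0.05, against 55630 of all 508351 cytosines. No experimental library correlated best with the control library of its own day. The mean line difference of the members, 0.511 points, was 0.0682 with each cytosine counted once, 0.0703 for members with at least 10 cytosines, 0.738 without constant cytosines and 0.420 to 0.591 with a library left out. Among the 35 named members, 9 had a difference whose sign turned under some alternative, none of them a called member and none past the threshold when turned (Zfp445 with the start sites of the promoter table, from -1.07 to 0.22 on the M-value scale, for example). The slope test called 0 members under each alternative, with 5 to 13 of 192 at an unadjusted p under 0.05. Over all 10554 promoters there were 343 to 763 at an unadjusted p under 0.05. The 13 members and the 343 promoters both came from leaving out control day 0. Runs numbered 29 at 200 kb and 31 at 1000 kb, against 33. For these counts the cause was not tested. The unknown depth limits all values near 0%, and 1 line per genotype limits each comparison to these cultures.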
